A study of Mus musculus with 12 samples.

Results

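Doxycycline induction of Mixl1 changed gene expression on day 2 and on day 4 of embryoid body culture, and the comparison described here is the late effect minus the early effect, (D3Dox_d4 − NoDox_d4) − (D1Dox_d2 − NoDox_d2). A positive difference means that the day 4 effect was the higher one, whether through a stronger rise or through a weaker fall. All 12 libraries entered the contrast, and all 18109 of 55487 counted genes that passed a filter on low counts were tested. The cells were mouse epiblast stem cells (EpiSCs, the in vitro counterpart of the epiblast just before gastrulation) converted from embryonic stem cells and named Mixl1DOX, in which doxycycline switches on a FLAG-tagged Mixl1. They were grown in suspension as embryoid bodies, and RNA was measured by bulk sequencing in 4 groups of 3 libraries. NoDox_d2 and NoDox_d4 carried the same transgene and were collected without the drug on days 2 and 4. D1Dox_d2 and D3Dox_d4 received 1 µg/mL doxycycline and were collected on days 2 and 4. The number after the D is not defined in the labels, and the late and early groups differ both in that number and in the day of collection. Cells without the transgene that received doxycycline are not among the groups, so the drug and Mixl1 cannot be told apart. The labels do not say whether the replicates of a group were grown apart. The p-values therefore measure only how these libraries spread, which may be technical.

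Mixl1 encodes a paired-type homeodomain transcription factor that is expressed for a short time in the primitive streak, where epiblast cells leave the epithelium to become mesoderm and endoderm. It is known for its role in shaping definitive endoderm and axial mesoderm. The competence of epiblast cells for mesodermal and neural fates is known to change as development proceeds. Embryoid bodies mix several cell types, and in bulk RNA fewer cells of a type and less RNA per cell cannot be told apart.

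The targeted gene stood at 91, 0.593 and 1.15 CPM in NoDox_d2, 392, 362 and 387 in D1Dox_d2, 1.62, 1.83 and 1.11 in NoDox_d4 and 478, 417 and 449.6 in D3Dox_d4 (CPM, counts scaled to a common library size, replicates 1 to 3 in order here and below). The library labelled NoDox_d2 replicate 1 thus held far more Mixl1 than the other uninduced libraries, while both induced groups were high in all replicates. Its effect was 3.62 ± 1.22 (edgeR adjusted p = 0.0453) on the log2 scale at day 2 and 8.20 ± 1.57 (edgeR adjusted p = 0.00311) at day 4 (± SE throughout). The day 2 effect was 8.74 without NoDox_d2 replicate 1, and its call was lost in 10 of 12 fits without 1 library (edgeR adjusted p of 0.0556 to 0.0933). The difference of 4.58 ± 1.77 was not called (edgeR adjusted p = 0.107) and turned to −0.53 without NoDox_d2 replicate 1. It passed without NoDox_d2 replicate 2, at 5.17 (edgeR adjusted p = 0.0451). A gene count cannot separate transgene from endogenous Mixl1.

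Depth was 24100487 to 28020036 counts per library, at which a gene with 3 counts has 0.106 to 0.130 CPM. Replicates 1 of both NoDox groups stood apart, correlating at 0.957 to 0.961 with the other replicates of their group, whereas all other replicate pairs correlated at 0.987 to 0.992 (Pearson across genes of log2 CPM). Results are therefore also given without these 2 libraries. Of the EpiSC markers, Pou5f1 stood at 249 to 644 CPM on day 2 and at 58.6 to 137 on day 4. Dnmt3b stood at 73.4 to 293 and 42.9 to 102 CPM, and Sox2 at 117 to 277 and 189 to 409. Nanog was at 36.3 to 253 CPM on day 2 and at 12 to 73.6 on day 4, Otx2 at 7.9 to 25.1 and 0.827 to 10.7, and Fgf5 at 12.3 to 34.4 and 1.3 to 7.39. All of these markers but Sox2 ranged lower on day 4, with Nanog and Fgf5 at most 19.1 and 2.73 in D3Dox_d4. In D1Dox_d2 the sum of 4 Y-linked genes was 4.14 to 5.28 CPM and Xist, the RNA of the inactive X chromosome, was 12.1 to 19.6. In the other 9 libraries these values were at most 1.06 and 2.01.

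In the fit across all genes (edgeR's quasi-likelihood test, Benjamini-Hochberg adjusted p under 0.05), the effects of day 4 and day 2 differed for 2336 genes, 12.9% of those tested. The day 4 effect was higher for 1206 genes (6.66%) and lower for 1130 (6.24%). The median difference over all tested genes was 0.003. Day 2 alone gave 5136 calls (28.4% of genes), of which 2705 rose (14.9%) and 2431 fell (13.4%). Day 4 gave 4263 calls (23.5%), of which 2424 rose (13.4%) and 1839 fell (10.2%). Called on both days were 1868 genes, 36.4% of the day 2 calls and 43.8% of the day 4 calls, and 1648 of these moved the same way. The 2 effects share no library, and across genes, which are not independent replicates, their Pearson correlation was 0.400. Of 5663 genes called on 1 day only, the difference itself was called for 1818 (32.1%), so that most genes called on a single day were not shown to differ between days.

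**Figure D1:**
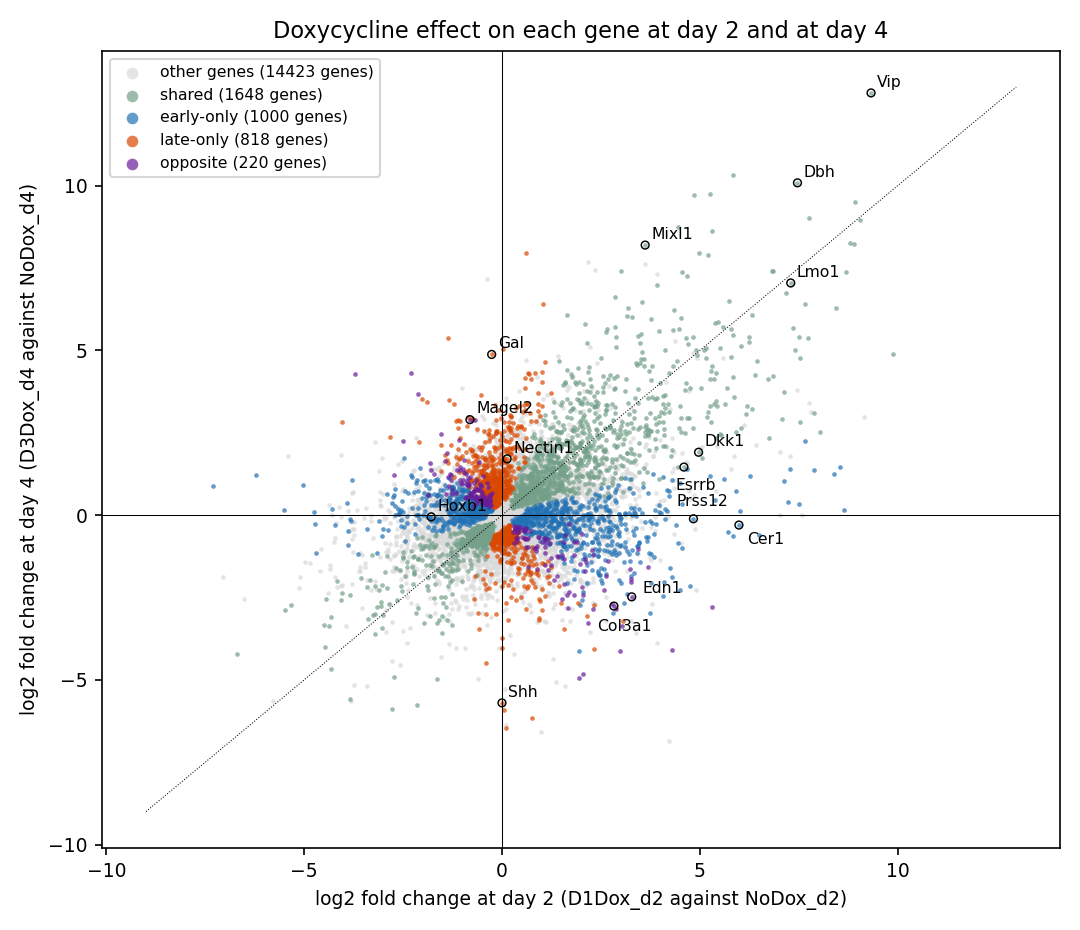
Each point is 1 of 18109 tested genes, placed by its log2 fold change at day 2 (horizontal axis) and at day 4 (vertical axis), and coloured by class; the dotted line marks equal effects. Early-only genes (1000) lie along the horizontal line, late-only genes (818) along the vertical line, shared genes (1648) along the diagonal and opposite genes (220) in the upper left and lower right.

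The genes were sorted into classes by these 3 tests. Early-only genes (1000, with 574 raised and 426 lowered at day 2) were called at day 2, not at day 4, and for the difference. Late-only genes (818, with 506 raised and 312 lowered at day 4) were the converse. Shared genes were called on both days in the same direction: 95 had a larger effect at day 2, 101 a larger effect at day 4, and 1452 no called difference. Opposite genes (220) were called on both days in opposite directions, 100 rising and then falling and 120 falling and then rising. For 102 genes the difference was called but neither effect. Left without a class were 2268 genes called only at day 2 and 1577 called only at day 4, whose difference was not called. Just inside the threshold lay Cnih2 (difference 1.06 ± 0.32) and just outside it Shank2 (1.14 ± 0.34).

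These counts moved with single libraries. Without both NoDox replicates 1, the difference was called up for 3479 genes and down for 2945, of 18613 tested. The classes then held 2798 early-only, 1314 late-only and 922 opposite genes. Of the genes sorted with all libraries, 746 of 1000 early-only, 518 of 818 late-only and 206 of 220 opposite genes kept their class. Among those that did not, 121 early-only and 233 late-only genes moved to the opposite class. When 1 library was left out, early-only genes ranged from 476 (without D1Dox_d2 replicate 3) to 2482 (without NoDox_d2 replicate 1). Late-only genes ranged from 423 (without D3Dox_d4 replicate 3) to 1237 (without NoDox_d2 replicate 1), and opposite genes from 96 (without D1Dox_d2 replicate 2) to 562 (without NoDox_d2 replicate 1). Unless another value is given, each called difference printed below with its SE stayed called with any 1 library left out and moved by less than 1.5-fold.

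**Figure D2:**
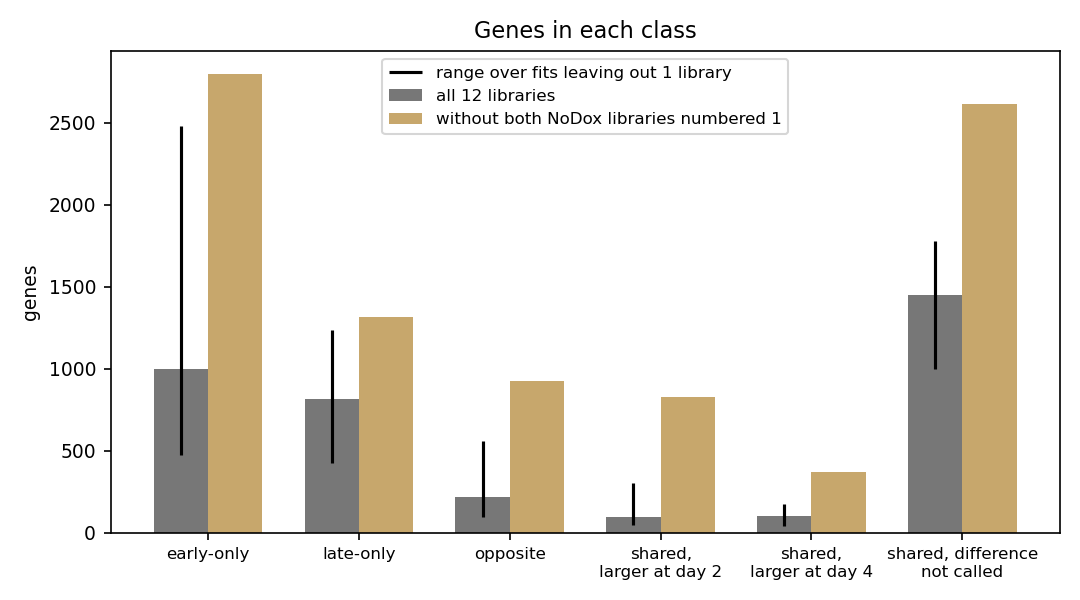
Bars give the number of genes in each class (vertical axis) with all 12 libraries (grey) and without the NoDox libraries numbered 1 (tan); black lines span the fits that leave out 1 library. Early-only genes rise from 1000 to 2798 and opposite genes from 220 to 922 when both libraries are left out.

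Of the 100 genes that rose at day 2 and fell at day 4, those with the lowest adjusted p are described first. Among the gene lists, the fibroblast list (15 tested) had 3 members in the opposite class, and the Wnt pathway (20 tested) and BMP and TGF-beta pathway (19 tested) lists had 0. The class held 1.21% of all tested genes, so 0 in a list of this size is near that share. Trib2 (ENSMUSG00000020601.8, chromosome 12, 15791727 to 15816922, minus strand), which encodes a Tribbles pseudokinase, stood at 39.8, 39.1 and 34.8 CPM in NoDox_d2, 123, 121 and 127 in D1Dox_d2, 71.4, 65.5 and 67 in NoDox_d4 and 57.3, 52.7 and 58.6 in D3Dox_d4. Coordinates are those of the deposited table, in GRCm38. All D1Dox_d2 libraries lay above all NoDox_d2 libraries, and all D3Dox_d4 libraries below all NoDox_d4 libraries. The Trib2 effect was 1.70 ± 0.09 at day 2 and −0.27 ± 0.09 at day 4, a difference of −1.98 ± 0.12 (edgeR adjusted p = 2.34e-05). Ltbp1 (ENSMUSG00000001870.16, chromosome 17, 75005568 to 75392512, plus strand), whose product holds latent TGF-beta in the matrix, stood at 30.3, 31.7 and 28.2 CPM in NoDox_d2, 114, 126 and 128 in D1Dox_d2, 65.3, 43.3 and 51.7 in NoDox_d4 and 34.8, 35.1 and 38.2 in D3Dox_d4. Here too neither pair of groups overlapped, and the effects were 2.03 ± 0.14 and −0.57 ± 0.13. The Ltbp1 difference was −2.60 ± 0.19 (edgeR adjusted p = 5.23e-05). In the same class were Daam2, a formin of Wnt signalling (difference −2.71 ± 0.23, edgeR adjusted p = 9.3e-05), and Fzd8, a Wnt receptor (−2.64 ± 0.23, edgeR adjusted p = 0.000117). Mme, the cell surface peptidase neprilysin, had a difference of −3.54 ± 0.35 (edgeR adjusted p = 0.000219).

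Edn1, the gene of endothelin-1, stood at 0.918, 1.42 and 0.744 CPM in NoDox_d2, 8.64, 8.91 and 12.5 in D1Dox_d2, 0.473, 0.894 and 1.19 in NoDox_d4 and 0.253, 0.147 and 0.0398 in D3Dox_d4. It was highest in D1Dox_d2, and 1 of the D3Dox_d4 libraries lay under the level of 3 counts. Its difference was −5.76 ± 0.66 (edgeR adjusted p = 0.000628, −6.37 without D3Dox_d4 replicate 1). Among matrix genes, Col5a1 (difference −2.19 ± 0.23, edgeR adjusted p = 0.00033) and the proteoglycan gene Dcn (−4.85 ± 0.74, edgeR adjusted p = 0.00281, −3.93 without NoDox_d4 replicate 1) turned in the same way. Col3a1 stood at 60.4, 28.7 and 34.6 CPM in NoDox_d2, 289, 267 and 325 in D1Dox_d2, 322, 31.3 and 28.7 in NoDox_d4 and 20.9, 16.3 and 19.2 in D3Dox_d4, and its difference was −5.59 ± 1.09 (edgeR adjusted p = 0.00833, −3.50 without NoDox_d4 replicate 1). NoDox_d4 replicate 1 held as much Col3a1 as the early-induced libraries. For these matrix genes, the group raised at day 2 is also the group with the highest Xist and Y-linked sum. The part of this in their differences was not tested. The mitotic kinase gene Plk1 rose slightly at day 2 (0.37 ± 0.12) and fell at day 4 (−0.68 ± 0.12), with a difference of −1.06 ± 0.17 (edgeR adjusted p = 0.00319).

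The reverse turn, a fall at day 2 and a rise at day 4, was called for 120 genes. In the opposite class were 0 of 18 pan-neuronal, 0 of 13 proneural and 1 of 17 neuropeptide genes. With 1.21% of all tested genes in the class, lists of this size would hold few members of it. Magel2 (ENSMUSG00000056972.6, chromosome 7, 62377010 to 62381640, plus strand), an imprinted gene known from the Prader-Willi region, stood at 43.5, 39 and 35 CPM in NoDox_d2, 23.2, 21 and 23 in D1Dox_d2, 39.6, 23.9 and 29.6 in NoDox_d4 and 212, 242 and 242 in D3Dox_d4. Every D1Dox_d2 library was below every NoDox_d2 library, and every D3Dox_d4 library was far above every NoDox_d4 library. The effects on Magel2 were −0.81 ± 0.16 and 2.90 ± 0.17, and the difference was 3.71 ± 0.23 (edgeR adjusted p = 2.34e-05). Igfbpl1, which encodes an IGF-binding-protein-like secreted factor, stood at 56.3, 40.2 and 41.9 CPM in NoDox_d2, 33.8, 26.8 and 25 in D1Dox_d2, 26.9, 41.6 and 30.1 in NoDox_d4 and 275, 220.4 and 232 in D3Dox_d4 and had a difference of 3.57 ± 0.27 (edgeR adjusted p = 5.23e-05). Syt6, a synaptotagmin gene of vesicle release, stood at 9.67, 11.5 and 8.96 CPM in NoDox_d2, 3.45, 3.05 and 2.08 in D1Dox_d2, 4.46, 4.43 and 4.42 in NoDox_d4 and 12.9, 12.9 and 13.8 in D3Dox_d4. The 4 Syt6 groups did not overlap within either day, and the difference was 3.38 ± 0.28 (edgeR adjusted p = 7.65e-05).

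Pcsk1, a convertase that cleaves prohormones, had a difference of 2.98 ± 0.39 (edgeR adjusted p = 0.00113), and the kinase gene Sbk1 one of 1.82 ± 0.15 (edgeR adjusted p = 7.65e-05). Cdhr1, a photoreceptor cadherin, fell by 1.08 at day 2 and rose by 2.29 at day 4 (difference 3.38 ± 0.26, edgeR adjusted p = 6.26e-05). The p53 target Sesn1 (1.41 ± 0.20, edgeR adjusted p = 0.00199) and the cell cycle inhibitor gene Cdkn1c (1.97 ± 0.26, edgeR adjusted p = 0.00138) were in this class as well. Cdkn1c shares 30.7% of its exon bases with a gene on the other strand and the counting used no strand, so its reads are uncertain.

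**Figure D3:**
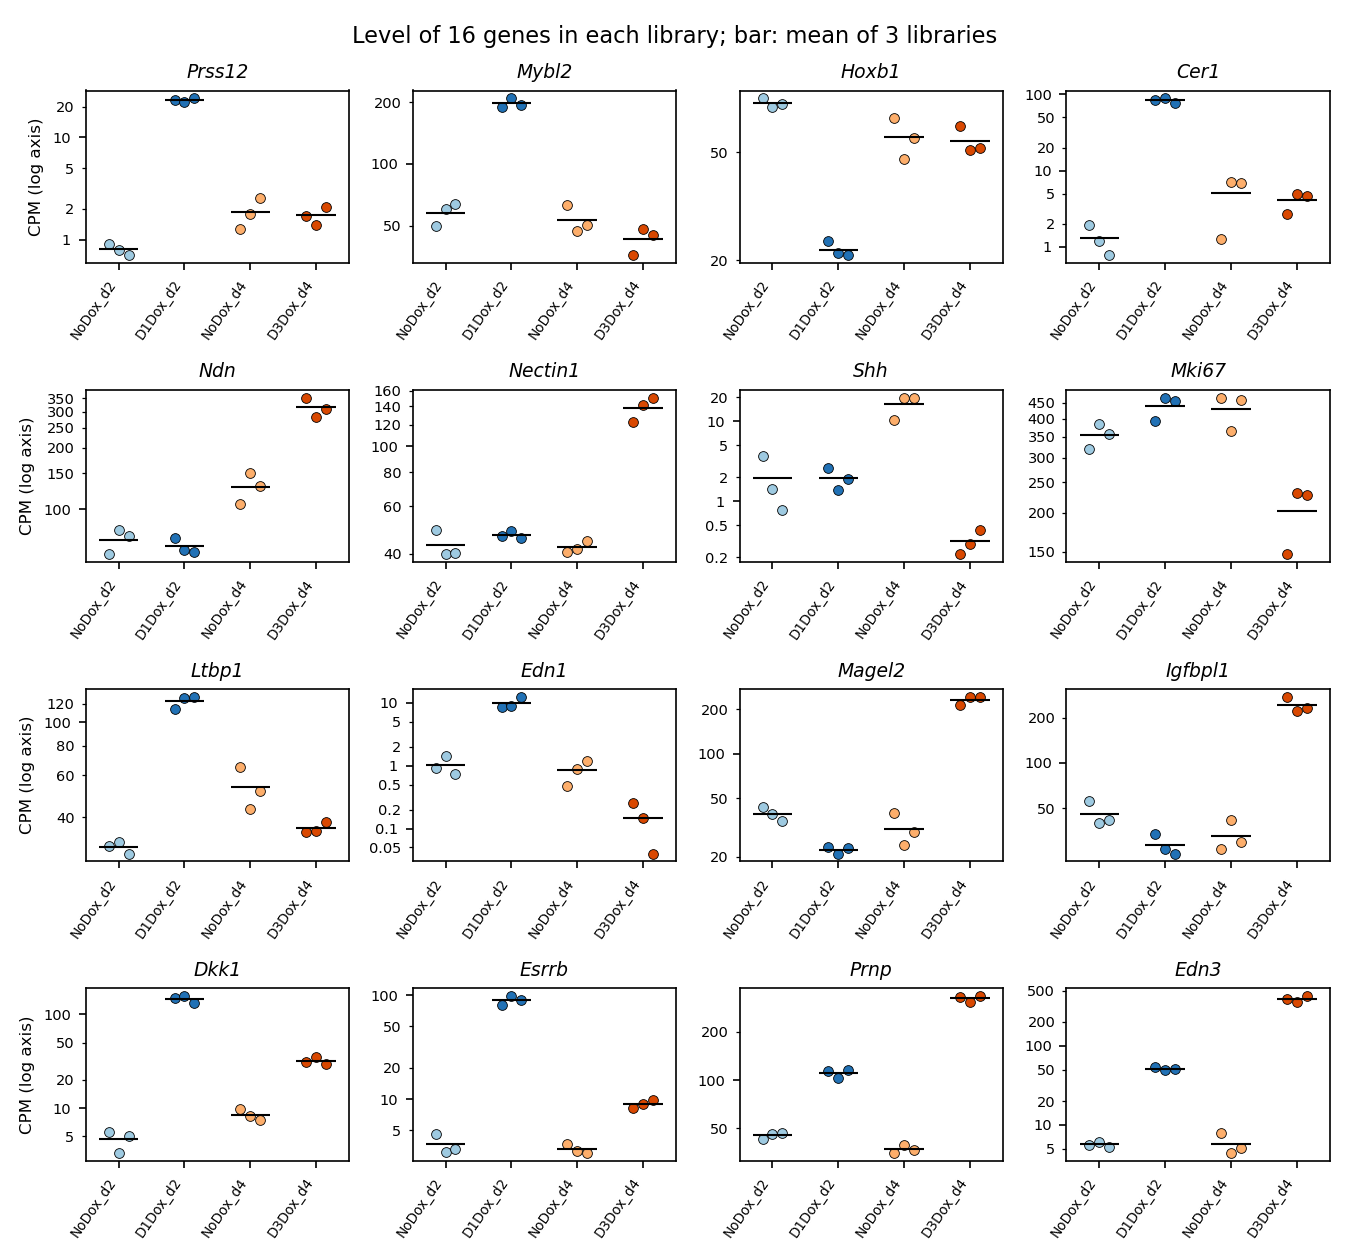
Each panel shows 1 gene, with its level in CPM (vertical log axis) in every library of the 4 groups; the bar is the mean of 3 libraries. From the top row down are 4 early-only genes, high or low in D1Dox_d2, 4 late-only genes, high or low in D3Dox_d4, 4 opposite genes, and 4 shared genes whose effect was larger at day 2 (Dkk1, Esrrb) or at day 4 (Prnp, Edn3).

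Of the early-only genes that rose, the median effect was 1.69 at day 2 and −0.21 at day 4. Prss12 (ENSMUSG00000027978.9, chromosome 3, 123446913 to 123506597, plus strand), the gene of the synaptic protease neurotrypsin, stood at 0.918, 0.791 and 0.707 CPM in NoDox_d2, 23.2, 22.1 and 24.1 in D1Dox_d2, 1.26, 1.79 and 2.57 in NoDox_d4 and 1.70, 1.40 and 2.11 in D3Dox_d4. Only the D1Dox_d2 libraries were high, and the day 4 groups overlapped. Prss12 changed by 4.84 ± 0.28 at day 2 and by −0.11 ± 0.26 at day 4, a difference of −4.95 ± 0.37 (edgeR adjusted p = 5.23e-05). Mybl2, a transcription factor gene of dividing cells, stood at 49.7, 60.2 and 63.5 CPM in NoDox_d2, 190.3, 209 and 193 in D1Dox_d2, 62.9, 46.9 and 50.6 in NoDox_d4 and 35.9, 48.4 and 45.1 in D3Dox_d4 and had a difference of −2.08 ± 0.20 (edgeR adjusted p = 0.000219). Lrrc4 encodes a synaptic adhesion protein and stood at 3.81, 3.16 and 3.16 CPM in NoDox_d2, 18.9, 15.5 and 14.9 in D1Dox_d2, 20.6, 18.2 and 20.4 in NoDox_d4 and 17.7, 19 and 20.9 in D3Dox_d4. For Lrrc4 the 2 day 4 groups overlapped each other and D1Dox_d2, and the uninduced libraries rose between days by 2.54. The Lrrc4 difference was −2.32 ± 0.21 (edgeR adjusted p = 0.000117).

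Nodal inhibitors and an activin subunit gene were also early-only. Cer1, an inhibitor of Nodal, BMP and Wnt ligands, stood at 1.94, 1.19 and 0.781 CPM in NoDox_d2, 83.9, 88.2 and 77.5 in D1Dox_d2, 1.26, 7.03 and 6.80 in NoDox_d4 and 2.68, 4.98 and 4.58 in D3Dox_d4. It was high in D1Dox_d2 alone, and its difference was −6.29 ± 0.73 (edgeR adjusted p = 0.000646). Without the NoDox replicates 1 Cer1 was also called at day 4, as a fall, and so was in the opposite class. Lefty1, a Nodal inhibitor, stood at 61.6, 36.6 and 52 CPM in NoDox_d2, 222, 202 and 179 in D1Dox_d2, 167, 48.8 and 37 in NoDox_d4 and 53.2, 37.2 and 36.5 in D3Dox_d4. NoDox_d4 replicate 1 was close to the early-induced libraries, and the difference was −3.00 ± 0.64 (edgeR adjusted p = 0.013, −2.01 without NoDox_d4 replicate 1). Inhba, which encodes an activin subunit, had a difference of −5.09 ± 0.85 (edgeR adjusted p = 0.00393, −5.81 without NoDox_d2 replicate 1, −4.25 without NoDox_d4 replicate 1). Egr1, an immediate early transcription factor gene, rose by 1.51 ± 0.13 at day 2 and was at 0.05 ± 0.13 at day 4 (difference −1.47 ± 0.19, edgeR adjusted p = 0.00099).

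Early-only genes that fell at day 2 included hindbrain Hox genes and a Notch ligand gene. Hoxb1 (ENSMUSG00000018973.2, chromosome 11, 96365752 to 96368256, plus strand) stood at 79.1, 73.4 and 75.1 CPM in NoDox_d2, 23.5, 21.2 and 20.9 in D1Dox_d2, 67.1, 47.3 and 56.6 in NoDox_d4 and 62.3, 51.1 and 52 in D3Dox_d4. The D1Dox_d2 libraries held less than the other 9, and the day 4 groups overlapped. Hoxb1 fell by 1.79 at day 2 and was at −0.05 ± 0.13 at day 4, a difference of 1.75 ± 0.18 (edgeR adjusted p = 0.000335). Hoxa2 stood at 16.7, 32.5 and 30.3 CPM in NoDox_d2, 6.97, 5.33 and 5.89 in D1Dox_d2, 26.3, 46.2 and 47.8 in NoDox_d4 and 41.9, 37.7 and 42.3 in D3Dox_d4, with a difference of 2.14 ± 0.37 (edgeR adjusted p = 0.0047). The Notch ligand gene Dll1, which marks nascent mesoderm and committed neural cells, stood at 56, 38.5 and 33.1 CPM in NoDox_d2, 14.5, 10.5 and 11.9 in D1Dox_d2, 62.9, 91.8 and 100.4 in NoDox_d4 and 104, 111 and 98.8 in D3Dox_d4. It was lowest in D1Dox_d2 and its difference was 2.09 ± 0.30 (edgeR adjusted p = 0.00203). The kinase gene Pak1 (difference 0.98 ± 0.11, edgeR adjusted p = 0.000455) and the semaphorin gene Sema4d (1.34 ± 0.16, edgeR adjusted p = 0.000827) had the same pattern. Car14, a carbonic anhydrase gene, had a difference of 2.15 ± 0.27 (edgeR adjusted p = 0.00099), with 17.5% of its exon bases shared with a gene on the other strand.

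Late-only genes that rose had a median effect of −0.17 at day 2 and 1.10 at day 4. Nectin1 (ENSMUSG00000032012.9, chromosome 9, 43743984 to 43832658, plus strand), a cell adhesion gene, stood at 48.9, 39.8 and 40.3 CPM in NoDox_d2, 46.7, 48.4 and 45.9 in D1Dox_d2, 40.6, 41.6 and 44.7 in NoDox_d4 and 123, 142 and 151 in D3Dox_d4. The D3Dox_d4 libraries alone were high, and the day 2 groups overlapped. Nectin1 changed by 0.13 ± 0.11 at day 2 and by 1.71 ± 0.11 at day 4 (difference 1.58 ± 0.15, edgeR adjusted p = 0.000218). The rhomboid gene Rhbdl3 (3.24 ± 0.34, edgeR adjusted p = 0.000335), the phospholipase gene Plcd1 (1.67 ± 0.18, edgeR adjusted p = 0.000335) and Carhsp1 (1.10 ± 0.12, edgeR adjusted p = 0.00049), an RNA-binding protein gene, followed the same course. Ndn, an imprinted gene of neurons, stood at 60.1, 78.8 and 74.1 CPM in NoDox_d2, 72.5, 63 and 61.8 in D1Dox_d2, 106, 149.7 and 129.8 in NoDox_d4 and 352, 283 and 310.1 in D3Dox_d4 and had a difference of 1.40 ± 0.20 (edgeR adjusted p = 0.00216).

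Late-only genes that fell included genes of Hedgehog signalling. Shh, the ligand, was at 3.71, 1.42 and 0.781 CPM in NoDox_d2, 2.61, 1.38 and 1.91 in D1Dox_d2, 10.4, 19.8 and 19.4 in NoDox_d4 and 0.217, 0.295 and 0.438 in D3Dox_d4. Its level was at most 3.71 CPM on day 2 in both groups, 10.4 to 19.8 in NoDox_d4 and 0.217 to 0.438 in D3Dox_d4. The Shh difference was −5.69 ± 0.76 (edgeR adjusted p = 0.00138, −6.52 without NoDox_d2 replicate 1). An overlap of 15.7% of its exon bases with a gene on the other strand makes its reads uncertain, and without the NoDox replicates 1 it was in the opposite class. The receptor and target gene Ptch1 stood at 89.1, 58.6 and 53.3 CPM in NoDox_d2, 48.7, 47.6 and 53.2 in D1Dox_d2, 219, 258 and 323 in NoDox_d4 and 54.8, 68.1 and 66.8 in D3Dox_d4, with a difference of −1.65 ± 0.27 (edgeR adjusted p = 0.00367). The target gene Gli1 (−2.88 ± 0.53, edgeR adjusted p = 0.00656, −3.56 without NoDox_d2 replicate 1) and the effector gene Gli3 (−1.30 ± 0.20, edgeR adjusted p = 0.00314) were lower in the same sense. For Shh, Ptch1 and Gli1, the change of the uninduced libraries between the days was 3.06, 1.99 and 2.19, and the change of the induced ones was −2.63, 0.34 and −0.69. Both sides share libraries with the difference and are given side by side only. Ptch1 and Gli1 were named after their values were seen.

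Genes that rose on both days but more at day 2 were led by Esrrb, a factor of naive pluripotency, and Dkk1, a secreted Wnt inhibitor. Esrrb stood at 4.66, 3.08 and 3.35 CPM in NoDox_d2, 80.9, 97.8 and 90.5 in D1Dox_d2, 3.67, 3.17 and 3.04 in NoDox_d4 and 8.24, 9.03 and 9.83 in D3Dox_d4. On each day the induced libraries lay above the uninduced ones, and the early-induced level was the highest. The Esrrb effects were 4.60 ± 0.18 and 1.46 ± 0.16, a difference of −3.14 ± 0.23 (edgeR adjusted p = 5.23e-05). Dkk1 stood at 5.61, 3.32 and 5.02 CPM in NoDox_d2, 148, 157 and 134 in D1Dox_d2, 9.70, 8.13 and 7.53 in NoDox_d4 and 31.2, 34.7 and 29.5 in D3Dox_d4 (difference −3.06 ± 0.24, edgeR adjusted p = 6.62e-05). Coch, an extracellular matrix gene (−2.48 ± 0.25, edgeR adjusted p = 0.000279), and Pcsk6, a convertase gene that processes TGF-beta family ligands (−2.13 ± 0.21, edgeR adjusted p = 0.000279), behaved alike. Hhip, a Hedgehog-binding inhibitor, stood at 2.12, 1.74 and 1.82 CPM in NoDox_d2, 80.6, 84 and 93.1 in D1Dox_d2, 9.62, 18.1 and 20.2 in NoDox_d4 and 83.2, 81.6 and 101 in D3Dox_d4. The 2 induced groups of Hhip overlapped, the uninduced ones were higher on day 4, and the difference was −3.03 ± 0.32 (edgeR adjusted p = 0.000378). Wnt8a, a Wnt ligand of the posterior epiblast, fell on both days and more at day 2 (difference 1.08 ± 0.20, edgeR adjusted p = 0.00581).

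Genes with a larger effect at day 4 included autonomic neuron and secretory genes. Prnp, the prion protein gene, stood at 42.9, 46.3 and 47 CPM in NoDox_d2, 114, 103 and 115 in D1Dox_d2, 35.1, 39.5 and 36.7 in NoDox_d4 and 328, 309 and 334 in D3Dox_d4, and none of its groups of 1 day overlapped. Its effects were 1.29 ± 0.09 and 3.12 ± 0.09, and the difference was 1.84 ± 0.12 (edgeR adjusted p = 2.85e-05). Edn3, the gene of endothelin-3, a signal of neural crest cells, stood at 5.61, 6.17 and 5.28 CPM in NoDox_d2, 53.6, 49.3 and 50.4 in D1Dox_d2, 7.97, 4.43 and 5.07 in NoDox_d4 and 390.1, 354 and 425 in D3Dox_d4 (difference 2.90 ± 0.25, edgeR adjusted p = 9.3e-05). Jak1, a cytokine receptor kinase gene, had a difference of 1.63 ± 0.14 (edgeR adjusted p = 7.65e-05). Dbh, the enzyme that makes noradrenaline, stood at 0.530, 0.435 and 0.372 CPM in NoDox_d2, 85.1, 71.3 and 84.1 in D1Dox_d2, 0.118, 0.0813 and 0.154 in NoDox_d4 and 120.4, 135 and 147 in D3Dox_d4. Both induced groups were high and D3Dox_d4 was the higher, while NoDox_d4 lay near the level of 3 counts. The Dbh difference was 2.62 ± 0.32 (edgeR adjusted p = 0.000827), from uninduced levels too low for a fold to be read closely. Hpca, a neuronal calcium sensor gene, had a difference of 4.43 ± 0.54 (edgeR adjusted p = 0.000827). Notch2, a Notch receptor gene, fell on both days and more at day 4 (difference −0.91 ± 0.19, edgeR adjusted p = 0.0114).

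For 1452 genes called on both days in the same direction no difference was called, 876 of them raised and 576 lowered. Lmo1, a LIM-domain regulator gene of neuronal cells, stood at 0.388, 1.70 and 1.04 CPM in NoDox_d2, 181, 162 and 144 in D1Dox_d2, 2.48, 2.68 and 3.15 in NoDox_d4 and 437, 326 and 344 in D3Dox_d4. The effects of 7.30 ± 0.35 and 7.05 ± 0.33 differed by −0.24 ± 0.42 (edgeR adjusted p = 0.728). Ndufa4l2, a mitochondrial gene, differed by −0.42 ± 0.30 (edgeR adjusted p = 0.377), and the collagen gene Col1a2 by −0.38 ± 0.17 (edgeR adjusted p = 0.162). A p that misses the threshold does not show that the effects were equal. B3gat1, which makes the HNK-1 carbohydrate of neurons and neural crest, differed by 0.61 ± 0.34 (edgeR adjusted p = 0.248).

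Over 39 gene lists with 561 genes and all 12 libraries, pan-neuronal and neuropeptide genes had the most called higher day 4 effects (8 each), and fibroblast genes the most lower ones (10). Hox and Cdx genes had more higher ones without NoDox_d4 replicate 1 (14) and without both NoDox replicates 1 (19). In the fit without both, 3479 of all 18613 tested genes were called higher and 2945 lower. Without NoDox_d2 replicate 1 it was 2663 and 2374 of 18746. These are larger shares than with all libraries, and the list counts of those fits are to be set against them. Of 18 tested pan-neuronal and synaptic genes, 8 had a called higher day 4 effect and 0 a lower one, with a median difference of 1.45 (all genes 0.003, with 6.66% called higher and 6.24% lower). At day 2, 6 of them rose and 0 fell (background 14.9% and 13.4%), with a median effect of 0.56. At day 4, 16 rose and 0 fell (background 13.4% and 10.2%), with a median of 2.09. Leaving out NoDox_d2 replicate 3 brought the 8 to 4, leaving out NoDox_d2 replicate 2 or D1Dox_d2 replicate 2 or 3 to 5, and leaving out NoDox_d2 replicate 1 to 11. There were 15 higher and 1 lower without both NoDox replicates 1. Dcx, a microtubule protein gene of migrating neurons, stood at 39.4, 36.6 and 32.7 CPM in NoDox_d2, 24.7, 17.4 and 21.6 in D1Dox_d2, 25.6, 70.7 and 62.6 in NoDox_d4 and 166, 209 and 238 in D3Dox_d4. D3Dox_d4 was far above the other groups, and D1Dox_d2 below NoDox_d2, with a difference of 2.72 ± 0.42 (edgeR adjusted p = 0.003). Stmn2, a neuronal growth gene named after its values were seen, had a difference of 2.23 ± 0.50 (edgeR adjusted p = 0.0155), and Gap43, of growing axons, one of 1.37 ± 0.28 (edgeR adjusted p = 0.00981). Ina, an intermediate filament gene of which 14.1% of exon bases are shared with the other strand, had 1.91 ± 0.40 (edgeR adjusted p = 0.0119).

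Of 17 neuropeptide and secretory granule genes, 8 had a higher and 1, the substance P precursor gene Tac1, a lower day 4 effect (median 1.20). Over all genes these shares were 6.66% and 6.24%, here and for the lists below. Scg3, a granule protein gene, stood at 4.06, 4.11 and 5.95 CPM in NoDox_d2, 9.55, 5.61 and 8.10 in D1Dox_d2, 6.55, 13.6 and 12 in NoDox_d4 and 98.3, 82.9 and 96.6 in D3Dox_d4, and its difference was 2.39 ± 0.38 (edgeR adjusted p = 0.00321). Chga, the chromogranin A gene, had a difference of 1.96 ± 0.25 (edgeR adjusted p = 0.00102). Gal, the galanin precursor gene, stood at 9.57, 1.98 and 2.16 CPM in NoDox_d2, 4.39, 3.13 and 3.94 in D1Dox_d2, 0.0789, 1.14 and 0.500 in NoDox_d4 and 20.5, 13.9 and 16.4 in D3Dox_d4. NoDox_d2 replicate 1 was the highest uninduced library, and the difference was 5.14 ± 0.97 (edgeR adjusted p = 0.00725, 4.01 without NoDox_d2 replicate 1, 6.11 without NoDox_d4 replicate 2). The 8 higher neuropeptide genes were 6 without replicate 2 or 3 of D1Dox_d2, D3Dox_d4 or NoDox_d2. The count of 1 lower gene was 0 without NoDox_d4 replicate 1 and 3 without NoDox_d2 replicate 1. Vip, a neuropeptide gene, stood at 0.212, 0.0791 and 0.186 CPM in NoDox_d2, 111, 93 and 117 in D1Dox_d2, 0.0394, 0 and 0 in NoDox_d4 and 129, 124 and 138 in D3Dox_d4. Both induced groups were high and D3Dox_d4 the higher, but NoDox_d4 held 1 count in all and NoDox_d2 13, so no fold is read from it. Of 18 noradrenergic and autonomic genes, 12 rose at each day (background 14.9% and 13.4%). For the difference, 5 had a higher and 2 a lower day 4 effect (median 0.68). These 5 were 8 without NoDox_d2 replicate 1 and 3 without D1Dox_d2 replicate 2 or 3, D3Dox_d4 replicate 3, or NoDox_d2 replicate 2 or 3. The 2 lower genes were 1 without D1Dox_d2 replicate 2 and 4 without NoDox_d2 replicate 1. Slc18a2, the vesicular monoamine transporter gene, named after its values were seen, had a difference of 1.66 ± 0.38 (edgeR adjusted p = 0.0168). Gata3, a factor gene of sympathetic neurons and surface ectoderm, went the other way (−2.41 ± 0.38, edgeR adjusted p = 0.00321). Of 13 proneural factor genes 2 were higher and 0 lower (median 1.64), and 11 were higher and 1 lower without both NoDox replicates 1. Leaving out single libraries gave 0 without D1Dox_d2 replicate 2 or NoDox_d2 replicate 2 or 3, 9 without NoDox_d2 replicate 1, 2 without NoDox_d4 replicate 2, and 1 in each other fit. Without both NoDox replicates 1, 11 neuropeptide genes were higher and 3 lower, and 9 noradrenergic genes were higher and 5 lower. Among all 18613 genes tested in that fit, 3479 were higher and 2945 lower. Dcx then fell into the opposite class, and Gal and Scg3 into the shared class larger at day 4.

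**Figure D4:**
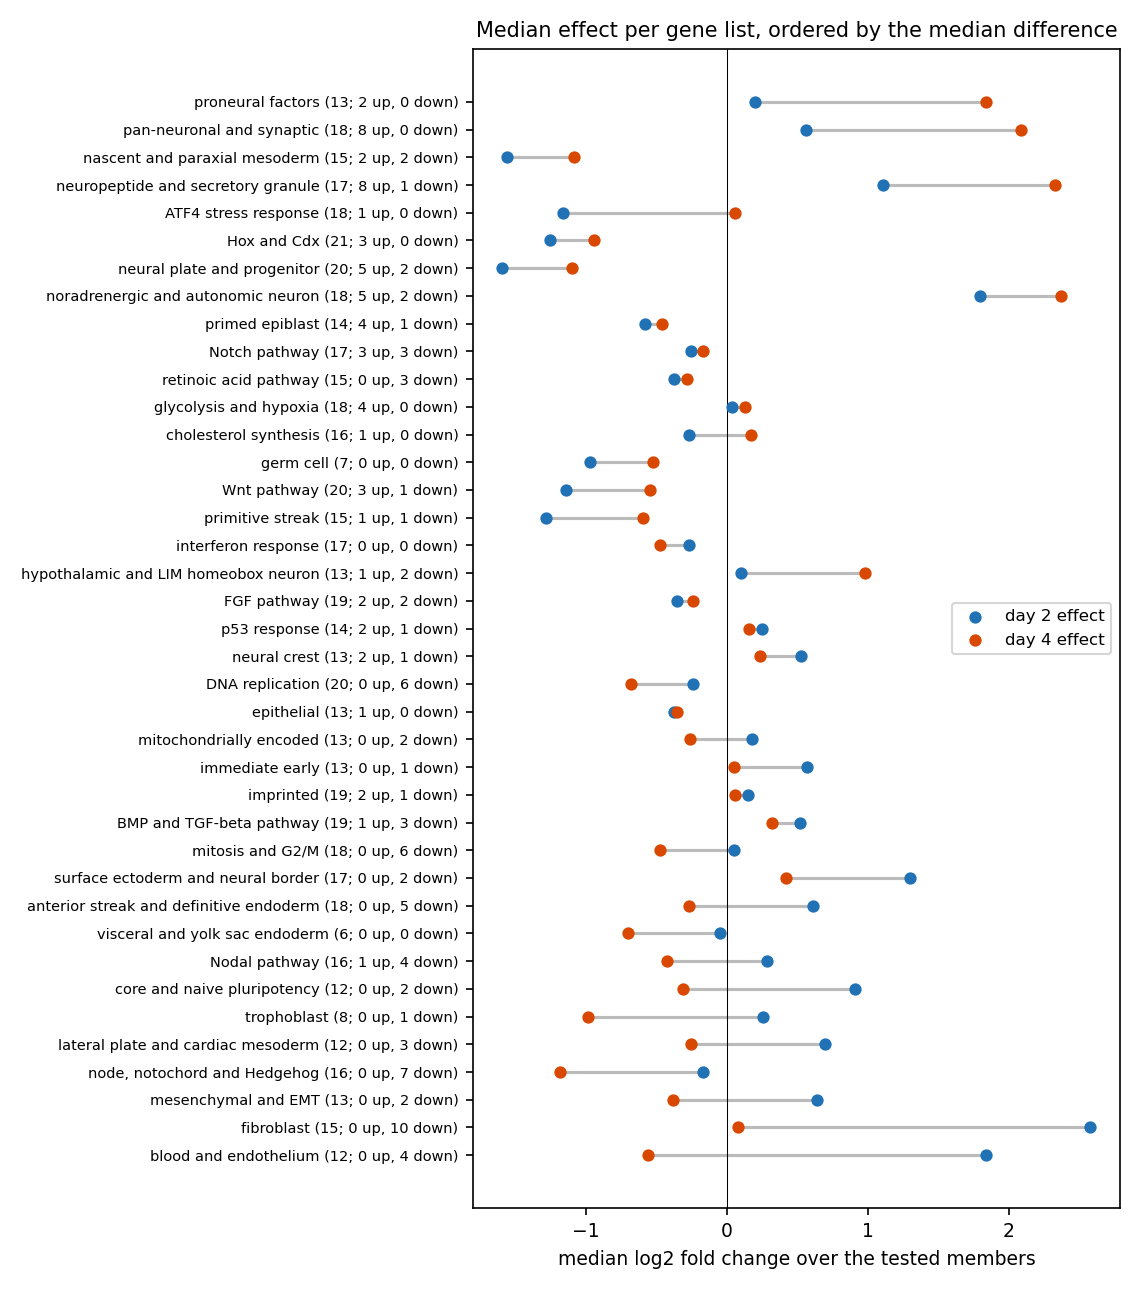
For each of 39 gene lists (vertical axis, with the number of tested genes and of members called higher or lower for the difference), points give the median log2 effect over its tested members at day 2 (blue) and day 4 (orange). Pan-neuronal genes move from 0.56 to 2.09 and fibroblast genes from 2.58 to 0.08.

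Fibroblast genes went the other way. Of 15 tested, 12 rose at day 2 and 0 fell (background 14.9% and 13.4%), and 2 rose and 5 fell at day 4 (background 13.4% and 10.2%). For the difference, 10 had a lower and 0 a higher day 4 effect (median −2.37, background 6.24% and 6.66%). The 10 became 7 without D1Dox_d2 replicate 3 or NoDox_d2 replicate 3, and 14 without NoDox_d2 replicate 1. Postn, a matrix gene, had a difference of −3.28 ± 0.40 (edgeR adjusted p = 0.000827), and Fap, a surface protease gene of activated fibroblasts, one of −4.31 ± 0.53 (edgeR adjusted p = 0.000827). The summed level of the list was 2195 to 2680.1 CPM in D1Dox_d2, 435 to 556 in NoDox_d2 and 532 to 632 in D3Dox_d4. In NoDox_d4 it was 262 and 276 in 2 libraries and 772 in replicate 1. No member was without a count in any group. In the same D1Dox_d2 libraries Xist and the Y-linked sum were highest, as given above, and their part in the result was not tested. Of 12 blood and endothelium genes, 4 had a lower day 4 effect and 0 a higher one (median −2.51). The 4 became 3 without NoDox_d4 replicate 1, NoDox_d2 replicate 2 or 3, or any 1 induced library. They became 6 without NoDox_d2 replicate 1. Esam, an endothelial adhesion gene, had a difference of −3.60 ± 0.51 (edgeR adjusted p = 0.00176), the receptor gene Tek one of −2.99 ± 0.61 (edgeR adjusted p = 0.0103, −3.59 without NoDox_d2 replicate 1), and Kdr, a VEGF receptor gene, one of −3.80 ± 0.84 (edgeR adjusted p = 0.0151, −2.46 without NoDox_d4 replicate 1). Their summed level was 87.3 to 95.7 CPM in D1Dox_d2, 13.8 to 45.7 in NoDox_d2 and 43.8 to 50.5 in D3Dox_d4. In NoDox_d4 it was 21.1 and 21.8 in 2 libraries and 100 in replicate 1, and Emcn was without a count in both induced groups. Of 13 mesenchymal and EMT genes 2 were lower, which became 0 without D1Dox_d2 replicate 2 or 3, any 1 D3Dox_d4 replicate, or NoDox_d2 replicate 2 or 3. Leaving out D1Dox_d2 replicate 1 gave 1, and leaving out NoDox_d2 replicate 1 gave 7. Without both NoDox replicates 1, the lower genes numbered 9 of this list, 13 of the fibroblast list and 6 of the blood and endothelium list. In each list 0 were higher, while of all 18613 genes in that fit 2945 were lower and 3479 higher. Kdr was then in the shared class larger at day 2.

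**Figure D5:**
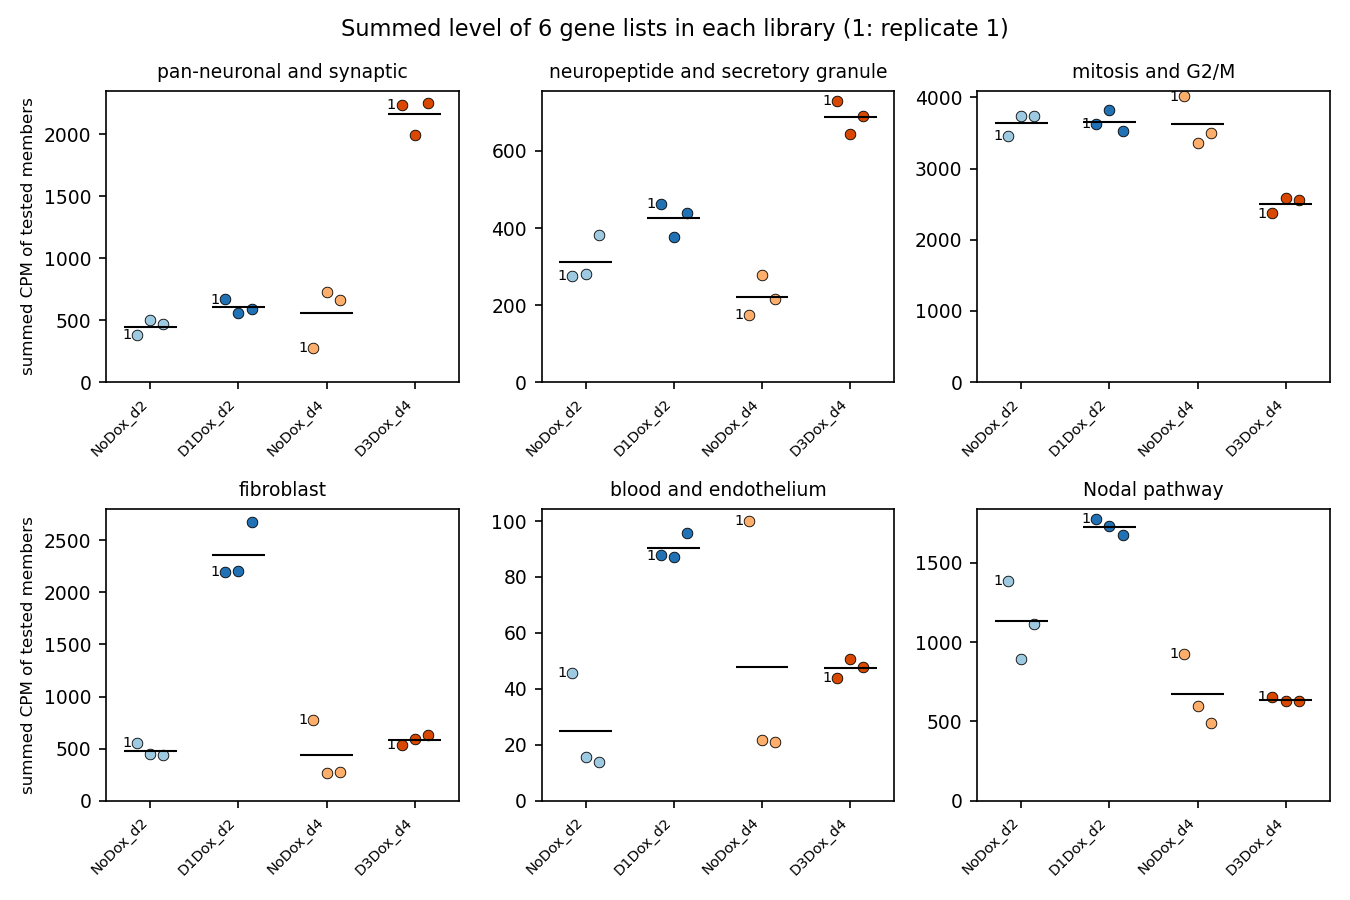
Points give the summed CPM of the tested members of 6 lists (vertical axes from 0) in each library, with replicate 1 marked and bars at the mean of 3 libraries. Fibroblast genes sum to 2195 to 2680.1 CPM in D1Dox_d2 and at most 772 CPM elsewhere, and replicate 1 of NoDox_d4 is the highest of its group for the blood and endothelium list.

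Node, notochord and Hedgehog genes (16 tested) had 7 lower and 0 higher day 4 effects (background 6.24% and 6.66%), with a median of −1.37. At day 2, 2 of them rose and 3 fell (background 14.9% and 13.4%), and at day 4, 1 rose and 9 fell (background 13.4% and 10.2%). The 7 were Shh, Ptch1, Gli1, Gli3, Hhip, Lefty1 and the transducer gene Smo. The Smo call was lost, leaving 6, in every fit without 1 library other than NoDox_d2 replicate 1. Without that library the list had 10 lower genes. Of 18 anterior streak and definitive endoderm genes 5 were lower and 0 higher (median −0.74), and 9 were lower and 1 higher without NoDox_d2 replicate 1. Gata6, an endoderm factor gene (−3.32 ± 0.76, edgeR adjusted p = 0.0169, −2.12 without NoDox_d4 replicate 1), and Lhx1, a homeobox gene of the anterior streak (−3.11 ± 0.72, edgeR adjusted p = 0.0175, −3.99 without NoDox_d2 replicate 1, −2.51 without NoDox_d4 replicate 1), were among the 5, with Cer1, Dkk1 and Kdr. Of 16 Nodal pathway genes 4 were lower and 1 higher (median −1.01), against 7 lower without NoDox_d2 replicate 1. The 4 lower genes were 3 in every other fit without 1 library, except that without NoDox_d4 replicate 3. That 1 higher gene was the receptor gene Acvr1b, whose call was lost in 7 of 12 fits without 1 library. With both NoDox replicates 1 left out, 10 node genes were lower and 1 higher, and 10 Nodal genes were lower and 2 higher. Among all 18613 genes tested in that fit, 2945 were lower and 3479 higher.

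Part of the cell division genes had lower day 4 effects than day 2 effects. Of 20 DNA replication genes, 15 fell and 0 rose at day 4 (background 10.2% and 13.4%), and 8 fell and 0 rose at day 2 (background 13.4% and 14.9%). For the difference, 6 had a lower and 0 a higher day 4 effect (median −0.31, background 6.24% and 6.66%). That count was 3 without D1Dox_d2 replicate 1 or 2, D3Dox_d4 replicate 2 or 3, or NoDox_d2 replicate 2 or 3, and 1 gene was higher without NoDox_d2 replicate 1. The origin licensing gene Cdc6 stood at 83.7, 85.5 and 87.4 CPM in NoDox_d2, 82.1, 85.8 and 78.2 in D1Dox_d2, 89.4, 65.8 and 74.7 in NoDox_d4 and 45.1, 43.7 and 45.8 in D3Dox_d4. Its difference was −0.71 ± 0.15 (edgeR adjusted p = 0.0117), and that of the ribonucleotide reductase gene Rrm2 was −0.74 ± 0.16 (edgeR adjusted p = 0.0137). Of 18 mitosis and G2/M genes, 12 fell and 0 rose at day 4, 2 rose and 3 fell at day 2, and 6 were lower and 0 higher for the difference (median −0.51). Mki67, the proliferation marker, stood at 320.2, 386 and 358 CPM in NoDox_d2, 395, 468 and 455 in D1Dox_d2, 467, 366 and 459 in NoDox_d4 and 147, 231 and 228 in D3Dox_d4. All 3 D3Dox_d4 libraries lay below the other 9, and the difference was −1.40 ± 0.24 (edgeR adjusted p = 0.00415). The kinetochore motor gene Cenpe differed by −0.74 ± 0.11 (edgeR adjusted p = 0.00262). Lower and higher genes numbered 8 and 1 for DNA replication and 7 and 0 for mitosis without both NoDox replicates 1. For all 18613 genes tested in that fit they numbered 2945 and 3479.

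Of 21 Hox and Cdx genes, 9 fell and 0 rose at day 2 (background 13.4% and 14.9%), and 1 rose and 1 fell at day 4 (background 13.4% and 10.2%). For the difference, 3 had a higher and 0 a lower day 4 effect (median 0.78, background 6.66% and 6.24%). Besides Hoxb1 and Hoxa2 this was Hoxa3, at 21.3, 28.3 and 23.6 CPM in NoDox_d2, 8.49, 7.32 and 11.5 in D1Dox_d2, 28, 33.3 and 36.4 in NoDox_d4 and 47.9, 49 and 55.8 in D3Dox_d4, with a difference of 2.07 ± 0.25 (edgeR adjusted p = 0.000776) and 25.4% of its exon bases shared with the other strand. The 3 became 14 without NoDox_d4 replicate 1 and 5 without NoDox_d2 replicate 1, and without both NoDox replicates 1 they became 19, with 0 lower. Of 18 ATF4 stress response genes 1 was higher with all libraries and 15 without the NoDox replicates 1. For 16 cholesterol synthesis genes it was 1 with all libraries and 14 without these replicates. In the fit without them, 3479 of all 18613 tested genes were higher. The ATF4 count was 7 without NoDox_d2 replicate 1 and 0 without D1Dox_d2 replicate 3. The cholesterol count was 7 without NoDox_d4 replicate 1, 4 without NoDox_d2 replicate 1, 1 without D3Dox_d4 replicate 1 or NoDox_d4 replicate 2, and 0 in each other fit.

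Of 14 primed epiblast genes 4 were higher and 1 lower (median 0.56). The background for this and the next 2 lists was 6.66% higher and 6.24% lower. The 4 became 1 without D1Dox_d2 replicate 3, and 2 without D1Dox_d2 replicate 2, D3Dox_d4 replicate 3 or NoDox_d2 replicate 2 or 3, while the 1 lower gene was lost in 9 of 12 fits without 1 library. Pou3f1, a POU factor gene of epiblast and early neural cells, stood at 23.8, 34.3 and 36.1 CPM in NoDox_d2, 25.8, 18.9 and 23.3 in D1Dox_d2, 12.1, 21.3 and 20.9 in NoDox_d4 and 52.7, 55.7 and 48 in D3Dox_d4 (difference 1.99 ± 0.31, edgeR adjusted p = 0.00314). Of 20 neural plate and progenitor genes 5 were higher and 2 lower (median 0.71), with 2 higher without D1Dox_d2 replicate 2 or 3, 3 without D3Dox_d4 replicate 1 or 3 or NoDox_d2 replicate 3, and 8 without NoDox_d4 replicate 1. The lower ones were 1 without D1Dox_d2, D3Dox_d4 or NoDox_d2 replicate 2. The midbrain homeobox gene En1 was higher (1.68 ± 0.31, edgeR adjusted p = 0.00692). Of 17 Notch pathway genes 3 were higher and 3 lower, among them the ligand gene Dll3 (2.31 ± 0.47, edgeR adjusted p = 0.0105) and the target gene Heyl (−3.05 ± 0.57, edgeR adjusted p = 0.00709). The higher Notch genes were 6 without NoDox_d4 replicate 1 and 5 without NoDox_d2 replicate 1. Without both NoDox replicates 1, higher and lower genes were 7 and 1 of the primed epiblast list, 11 and 2 of the neural plate list and 7 and 4 of the Notch list. For all 18613 genes tested in that fit they were 3479 and 2945. Pou3f1 and En1 were then in the opposite class.

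The difference is a change of the induced libraries between days minus a change of the uninduced ones, and the 2 sides can be set beside each other. The classes were called on these same libraries, so the medians and counts by class are in part fixed by that choice. They describe the classes and test nothing. Early-only genes that rose fell by a median of 1.67 from D1Dox_d2 to D3Dox_d4, while the uninduced median was 0.12. Late-only genes that rose had medians of 1.16 on the induced and −0.08 on the uninduced side. The sides were −1.81 and 0.20 for opposite genes that rose first, and 1.25 and −0.08 for those that fell first. The induced change was the larger in size for 852 of 1000 early-only, 689 of 818 late-only and 196 of 220 opposite genes, and also for 12842 of all 18109 tested genes (70.9%) and 7131 of 10476 with no call at all. Among all genes, 44.0% were called between the induced groups (22.6% up, 21.4% down) and 10.6% between the uninduced ones (5.09% up, 5.55% down). Of the 574 early-only genes that rose, 507 fell between the induced groups, and 71 rose between the uninduced ones. Lrrc4, Shh, Ptch1, Gli1 and Hhip, described above, were among the genes with the larger change in the uninduced libraries. So were Dbh and Gal, which fell there, Dbh at very few counts and Gal from a high NoDox_d2 replicate 1.

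Promoters of the classes were searched for the short core that homeodomain proteins bind, since Mixl1 is one of them. RefSeq promoters (250 bases before the start site, build GRCm38.p6) were matched to 12270 of 18109 tested genes. The core TAATTA, which reads the same on both strands, was in 2.31% of all matched promoters, 2.29% of early-only raised genes and 1.54% of late-only raised genes. It was in 3.60% of late-only lowered genes and in 2.63% and 1.01% of opposite genes that rose and fell first. The palindromic site of paired-type homeodomain dimers, 2 facing TAAT cores with 3 bases between, was in 22 of all promoters (0.179%), too few for a share by class to be read. The early-only, late-only and opposite classes held 0 of them, and the shared class with no called difference held 3. The bicoid-type core GGATTA, on either strand, was in 5.13% of all, and in 3.60% to 7.89% of the early-only, late-only and opposite genes taken by direction (6 groups of 76 to 393 promoters). Also searched, on both strands, were TGATGNAAT (ATF4 type, 0.416% of all), the interferon-stimulated response element (2.5%), TTTGGCGC (E2F type, 0.750%) and CACGTG (E-box, 8.10%). Over the same 6 groups these ranged over 0% to 1.8%, 0.450% to 6.58%, 0% to 1.53% and 5.26% to 13.5%. The highest ATF4 type and E-box shares were in late-only lowered genes (4 and 30 of 222 promoters). The highest interferon element share was in opposite genes that rose first (5 of 76). The ATF4 type and interferon counts are too few for a share to be read closely, and none of these shares was tested. Windows of 60 bases around the TAATTA core are shown for 4 named genes that have it, which fall in 4 different classes. Each is written 5′ to 3′ on the strand of the gene, with the core in capitals.
Lrrc4, early-only, chr6:28831938-28831997, minus strand: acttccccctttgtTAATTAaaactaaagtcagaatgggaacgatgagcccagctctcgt
Plpp3, late-only, chr4:105157196-105157255, plus strand: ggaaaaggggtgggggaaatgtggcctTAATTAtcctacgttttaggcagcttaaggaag
Syt6, opposite, chr3:103574995-103575054, plus strand: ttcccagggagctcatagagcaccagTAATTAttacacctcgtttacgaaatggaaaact
Lmo1, shared, chr7:109175361-109175420, minus strand: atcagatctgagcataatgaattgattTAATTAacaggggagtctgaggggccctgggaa
The core lay 236, 124, 224 and 186 bases before the start site, in this order. Plpp3, a lipid phosphatase gene, stood at 26.8, 31.6 and 31.6 CPM in NoDox_d2, 33.3, 32.9 and 31.6 in D1Dox_d2, 59.6, 64.9 and 63.8 in NoDox_d4 and 30, 35.7 and 31.6 in D3Dox_d4 and had a difference of −1.07 ± 0.15 (edgeR adjusted p = 0.00146). A match is a description of letters and no evidence of binding, which was not measured here.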

How the data were processed

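The authors deposited unnormalized counts, 1 per gene and library. Per the file headers these count read pairs, without regard to strand, with featureCounts 2.0.1 over GENCODE vM25 genes. STAR and DESeq2 are also named in the submitters' processing notes, with GRCm38 and mm10 as builds. Per the labels' protocols, reads of 150 bp were trimmed with Trim Galore to at least 50 bp. How reads matching several gene copies were treated is not given in the sources used here.

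The counts were fitted with edgeR 4.0.16 (limma 3.58.1, R 4.3.3) using TMM scaling, filterByExpr and 1 coefficient per group, with 8 residual degrees of freedom over 12 libraries. The quasi-likelihood F-test gave each contrast, with Benjamini-Hochberg adjustment over 18109 genes. The SE is the size of the log2 value divided by the square root of F, and at few counts it can understate counting error. The procedure was also run on simulated counts with changes in D3Dox_d4 alone and no library standing apart. That run does not cover the deviation of the NoDox replicates 1, and its outcome is not given here. Symbols were matched by identifier for 55141 of 55487 genes.

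The genes, lists and tests were chosen with earlier results of these data known. The rule for named genes took Mixl1, the 6 highest and 6 lowest called differences, and the 5 genes per class and direction with the lowest adjusted p. All of these but Mixl1 needed a mean of at least 5 CPM in their highest group and a symbol that is no predicted or clone name. They also needed the same class without both NoDox replicates 1, so the 6 per end are not the extremes over all called genes. Each list added up to 3 called members and those in the opposite class. From these, mainly genes whose call held without any 1 library are named, a choice made after values were seen, as were Ptch1, Gli1, Stmn2 and Slc18a2. The results were recomputed with 2 other scalings (DESeq2's size factors and the upper quartile), 2 other filters on low counts, the DESeq2 1.42.0 test, a replicate block, an adjusted p under 0.01 and libraries left out, and the counts of called differences also with a minimum log2 difference of 1. Deviations of same-numbered NoDox_d2 and NoDox_d4 libraries correlated at 0.545, 0.361 and 0.308. NoDox_d2 replicate 2 with NoDox_d4 replicate 3 gave 0.416, and NoDox_d2 replicate 3 with NoDox_d4 replicate 2 gave 0.325. The replicates 1 of both groups thus deviated together, but the data do not pair replicates 2 and 3 by number. No label gives a reason. A few named genes are not reported here. Figures were drawn with matplotlib 3.10.9.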

Additional observations from a re-analysis of the deposited data

Results flagged for a closer look

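A called difference between the effects of the 2 days singles out 1206 genes with a higher and 1130 with a lower day 4 effect. Of these, 100 were called up at day 2 and down at day 4, and 120 down and then up. The leading genes of both kinds are those with the lowest adjusted p of the difference. Turning downward from day 2 to day 4 were Mme (log2 difference −3.54), Daam2 (−2.71), Fzd8 (−2.64), Ltbp1 (−2.60) and Trib2 (−1.98). Turning upward were Magel2 (3.71), Igfbpl1 (3.57), Cdhr1 (3.38), Syt6 (3.38) and Sbk1 (1.82). All 10 had 3 libraries per group. A check for single outlying libraries inside a group needs at least 4 and was not made. In the fits without 1 library, all 10 differences stayed called.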

How the results depend on the processing

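At an adjusted p under 0.01, the calls up and down were 1550 and 914 at day 2, 1397 and 799 at day 4, 368 and 323 for the difference, 351 and 424 between the uninduced days and 2501 and 2254 between the induced days. The classes then held 293 early-only, 259 late-only, 46 opposite, 31 shared larger at day 2, 24 shared larger at day 4, 701 shared with no called difference and 38 with a called difference alone. Without both NoDox replicates 1, day 2 gave 4985 and 4917, day 4 gave 3843 and 3325, the difference 3479 and 2945, and the uninduced days 2489 and 2045. The classes were 2798, 1314, 922, 830, 368, 2615 and 192 in the same order. With no filter 182 genes, and with DESeq2 206, had a called difference alone, and DESeq2 put 184 genes in the shared class larger at day 2. A log2 difference of at least 1 left 768 of the higher calls. Leaving out 1 library gave 1827 to 3788 rises and 1197 to 3650 falls at day 2, and 1725 to 3096 and 1031 to 2458 at day 4. It gave 628 to 2663 and 592 to 2374 for the difference, 515 to 1702 and 537 to 1506 between the uninduced days, and 3039 to 4839 and 2937 to 4609 between the induced days. The classes ranged over 476 to 2482 early-only, 423 to 1237 late-only, 96 to 562 opposite, 49 to 302 shared larger at day 2, 43 to 177 shared larger at day 4, 1000 to 1776 shared with no called difference, and 56 to 277 with the difference alone. The cause was not tested. Mixl1 alone among the named genes reversed, with a difference of −0.53 without NoDox_d2 replicate 1 and −0.49 without both NoDox replicates 1, and its call passed at 5.17 without NoDox_d2 replicate 2. Induced and uninduced libraries of 1 day share only a number: same-numbered D1Dox_d2 and NoDox_d2 libraries correlated at −0.105, −0.0334 and −0.125, and D3Dox_d4 and NoDox_d4 at −0.0666, −0.0643 and 0.0369. D1Dox_d2 and D3Dox_d4 gave 0.241, 0.0186 and 0.130. In the uninduced groups the replicates 1 deviated together, and replicates 2 and 3 did so without regard to number. With the number as a block, the difference was called up for 1268 genes and down for 1180, the uninduced days for 894 and 947, and of 168 named values 2 lost their call (Dhrs3 and mt-Nd2). Depth limits the folds of genes whose uninduced level is near 3 counts, such as Dbh.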
